A study of Xiphophorus maculatus x Xiphophorus hellerii with 32 samples.

Results

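Skin of 3 fish of title number 11963 (11963a, 11963d and 11963g) was set against skin of 8 fish of title number 11949 (a, b, c, f, g, h, l and q). The members were found by the titles, which join a number, a letter and a tissue, and they make up 11 of the 32 samples of the series. Each library came from a different fish. All were 9-month-old BC1 animals, the first backcross generation of hybrids of Xiphophorus maculatus, a platyfish, with Xiphophorus hellerii, a swordtail, and all bore a melanoma, so the skin of both groups was that of tumor-bearing animals. The labels give no treatment and no sex. The number 11963 or 11949 is shared by several fish, and the labels do not say what it marks (a brood, a tank, a day). A brood and any shared handling therefore cannot be told apart.

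In the Gordon-Kosswig cross, hybrids receive the oncogene Xmrk, which encodes an overactive relative of the epidermal growth factor receptor, from the platyfish, and repeated crossing to the swordtail removes platyfish regulators that hold it in check. Pigment cells then overgrow into melanoma. A backcross animal carries at each locus either 1 platyfish and 1 swordtail copy or swordtail copies alone, and siblings draw different combinations, so fish of a single brood are not genetically alike.

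Total counts ranged from 5705330 to 6468003 in 11963 and from 4239036 to 6587451 in 11949. They averaged 6035198 ± 391618 and 5502393 ± 697679 (SD, n = 3 and 8, exact two-sided permutation p = 0.255, adjusted over 3 library measures p = 0.764). The 10 most abundant transcripts took 13.3 ± 4.01% and 12.6 ± 2.53% of the counts (exact permutation p = 0.770), and the number of transcripts with a count also overlapped (exact permutation p = 0.709). The smallest p that 3 fish against 8 can give is 0.00606. Of 20499 transcript rows, 30 carry a gene symbol, and the others carry platyfish transcript identifiers with no gene name beside them. No row carries a symbol from any of 14 marker lists for pigment cells, epidermis, muscle, blood, leukocytes and other tissues, so the labelled tissue could not be checked against its markers.

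No transcript passed the test between the title numbers. Of 15296 tested transcripts, 0 (0%) had an adjusted p below 0.05 (edgeR quasi-likelihood test with Benjamini-Hochberg adjustment), the smallest adjusted p being 0.293. An unadjusted p below 0.05 was seen for 1062 (6.94%), of which 545 were higher and 517 lower in 11963. An even spread of p-values would put 764.8 there. That number was 592 without 11963d and 1641 without 11963g. DESeq2 called 96 of 16573 transcripts, 44 higher and 52 lower, and voom of limma called 0. Without 11963d the edgeR test called 5 transcripts, and without 11949a it called 5, sharing 0 with the former. Of these, 4 and 3 were also among the 96 of DESeq2, which rest on the same libraries. With all 16 skins of the series in the fit, edgeR called 1. The groups did not overlap for 213 transcripts (1.39%), 117 of them higher (0.765%) and 96 lower (0.628%) in 11963. Fish grouped without regard to level would separate in 1 of 165 splits in each direction, a share of 0.00606. A lack of overlap alone thus marks no difference.

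**Figure D1:**
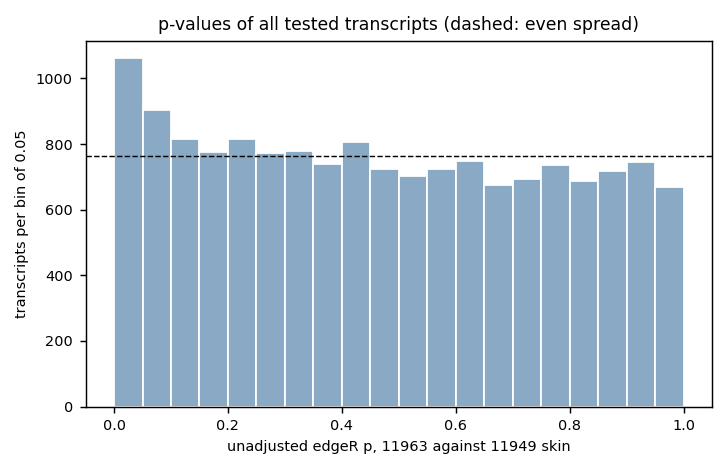
Unadjusted edgeR p-values of the 15296 tested transcripts, as the number of transcripts (vertical axis) in each bin of 0.05 (horizontal axis). The lowest bin holds 1062 transcripts, against 764.8 for an even spread (dashed line), and 0 transcripts passed after adjustment.

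The skins of 11963 were, by the median over pairs, about as like those of 11949 as each other. Across transcripts, Pearson's r of log2 CPM (counts brought to a common library size with TMM factors) was 0.883 for 11963a with 11963d, 0.839 for 11963d with 11963g and 0.816 for 11963a with 11963g. Within 11949 the 28 pairs ran from 0.783 to 0.894 with a median of 0.844, and the 24 pairs that join the title numbers ran from 0.777 to 0.882 with a median of 0.840. The skin most like 11963g was that of 11949q (r = 0.882), and 11949q in turn was closest to 11963g. For 2 of 3 skins of 11963 and 7 of 8 of 11949 the closest skin carried the same title number. The 2 were 11963a and 11963d, each closest to the other. Most of the skins compared carry 11949, and the share that group sizes alone would give was not computed. These are descriptions across transcripts, which are not independent replicates.

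On the first principal component, which carried 20.9% of the variance, the 11963 fish were spread over most of the range: 11963a lay at -48.3, 11963d at -2.24 and 11963g at 43.5. The 11949 fish ran from -84.4 (11949a) to 70.7 (11949l). On the second (15.0%), 11963a and 11963d lay at 68.9 and 68.6, above every skin of 11949, whose highest value was 31.9, while 11963g lay at -12.4 among them. The title number took a median of 5.98% and a mean of 11.2% of a transcript's variance of log2 CPM. A grouping of 11 libraries that carried no information would take 10% on average.

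**Figure D2:**
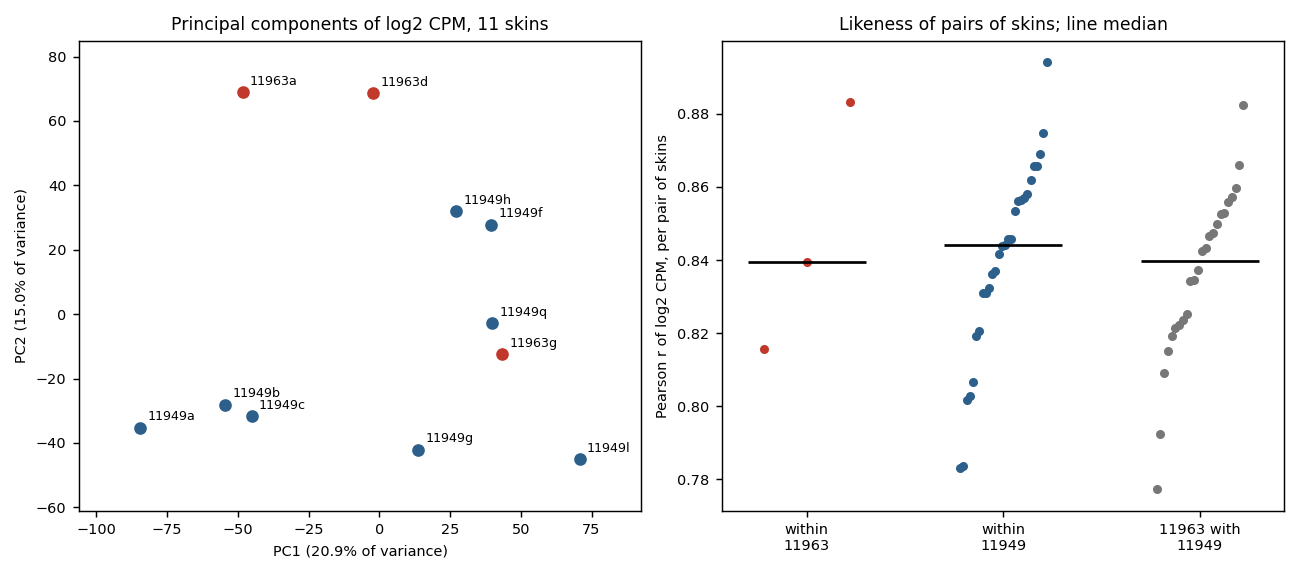
Left, first against second principal component of log2 CPM for the 11 skins (red, 11963, blue, 11949). Right, Pearson's r of log2 CPM for each pair of skins, with the median as a line: 11963a and 11963d lie apart from the rest at 68.9 and 68.6 on the second component, and the pairs between title numbers run from 0.777 to 0.882, against 0.783 to 0.894 within 11949.

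Of the 20 tested transcripts with a symbol, 0 passed the test, 0 had an unadjusted edgeR p below 0.05 (against 6.94% of all tested transcripts) and 0 had groups that did not overlap (against 1.39%). By estimate 10 were higher and 10 lower in 11963. Their median absolute log2 fold change was 0.32, against 0.38 over all tested transcripts, whose signed median was -0.03. The 95% interval of the fold change lay within 4-fold either way for all 20 and within 2-fold for 6. Larger differences than the estimates are thus not excluded for most of them at 3 fish against 8. In bulk skin, more cells of a type and more RNA per cell cannot be told apart.

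**Figure D3:**
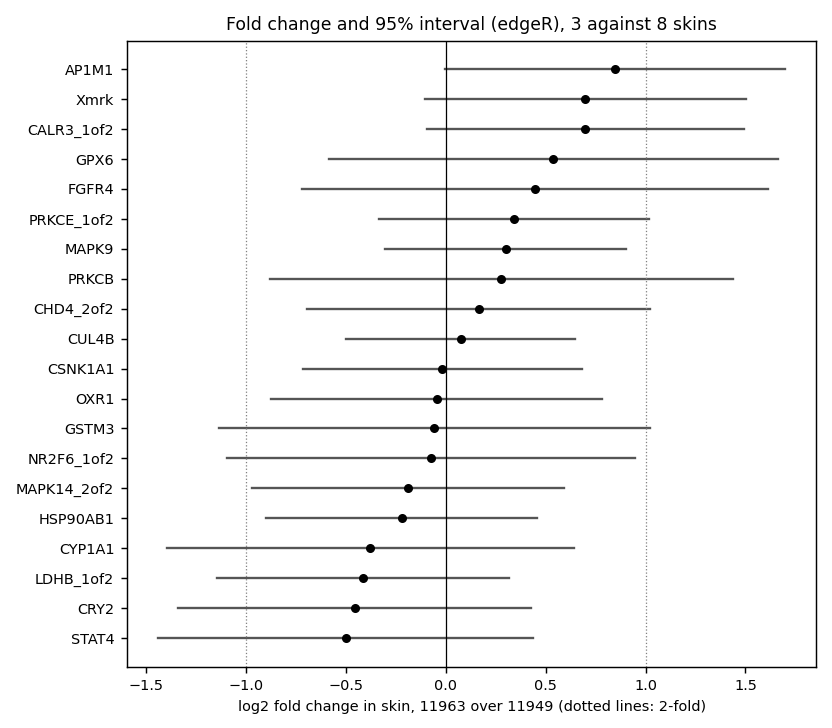
Log2 fold change of skin of 11963 over skin of 11949 for the 20 tested transcripts with a symbol (points), with 95% intervals from edgeR (bars); dotted lines mark a 2-fold difference. Every interval includes 0; AP1M1, at 0.85, comes closest to leaving it out.

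Receptor tyrosine kinases come first. Xmrk was measured at 103 CPM in the skin of 11963a, 101 in 11963d and 48.7 in 11963g. In the 8 skins of 11949 it ran from 23.3 (11949l) through a median of 47.3 to 77.0 (11949c). The skins 11963a and 11963d thus lay above every skin of 11949, and 11963g lay near their median. The means were 84.5 ± 30.97 and 52.0 ± 18.5 CPM (SD, n = 3 and 8), a log2 fold change of 0.70 (SE 0.37, 95% interval -0.10 to 1.50, edgeR adjusted p = 0.768). Without 11963g the log2 fold change was 0.95 (SE 0.41, edgeR adjusted p = 0.463), and without 11963a it was 0.53.

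FGFR4, a fibroblast growth factor receptor, stood at 18.1, 31.6 and 19.9 CPM in 11963a, 11963d and 11963g. In 11949 it ran from 6.14 through a median of 14.6 to 32.7 CPM. All 3 values of 11963 lay above that median but within the range (log2 fold change 0.45, SE 0.54, 95% interval -0.72 to 1.61, edgeR adjusted p = 0.919). The 11949 values were spread 5.32-fold, with 11949a, 11949b, 11949c and 11949q at 6.14 to 8.68 CPM and the other skins at 20.5 CPM or more.

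AP1M1, a medium subunit of the clathrin adaptor complex AP-1, which sorts cargo at the Golgi and endosomes, had the smallest p among the transcripts with a symbol. Its level was 54.6 CPM in 11963a, 61.0 in 11963d and 14.7 in 11963g. The 11949 skins ran from 17.7 through a median of 20.7 to 36.9 CPM. The 3 fish of 11963 thus held both ends of the whole set: 11963a and 11963d lay above every skin of 11949, and 11963g lay below every one. The log2 fold change was 0.85 (SE 0.40, 95% interval -0.0033 to 1.70, edgeR unadjusted p = 0.0508, adjusted p = 0.720). Without 11963g it was 1.23 (SE 0.35, edgeR adjusted p = 0.335), but it fell to 0.65 without 11963a and to 0.52 without 11963d.

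CALR3_1of2, a copy of a calreticulin gene, whose products help glycoproteins fold in the endoplasmic reticulum, was arranged in the same way. It measured 257, 232 and 71.4 CPM in 11963a, 11963d and 11963g, against 76.7 to 149 CPM with a median of 123 in 11949. Again 11963a and 11963d exceeded all 8 skins of 11949 and 11963g fell below all of them. Its log2 fold change was 0.70 (SE 0.37, 95% interval -0.09 to 1.49, edgeR adjusted p = 0.768), and 1.06 (SE 0.33, edgeR adjusted p = 0.342) without 11963g. The estimate fell to 0.40 without 11963a and to 0.51 without 11963d. As a copy, CALR3_1of2 may share reads with its partner, since the counting of such reads is not given.

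The other chaperone, the cytosolic HSP90AB1, ran the other way among the same fish. It stood at 4242 CPM in 11963a, 4479 in 11963d and 8025 in 11963g, and in 11949 from 4663 through a median of 6169 to 9651 CPM. Here 11963a and 11963d were below every skin of 11949, and 11963g was within their range. The means were 5582 ± 2119 and 6494 ± 1609 CPM (SD, n = 3 and 8, log2 fold change -0.22, SE 0.32, 95% interval -0.90 to 0.46, edgeR adjusted p = 0.933). Both measured members of the chaperone list, this and the calreticulin copy, failed the test, as did all 15296 tested transcripts.

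**Figure D4:**
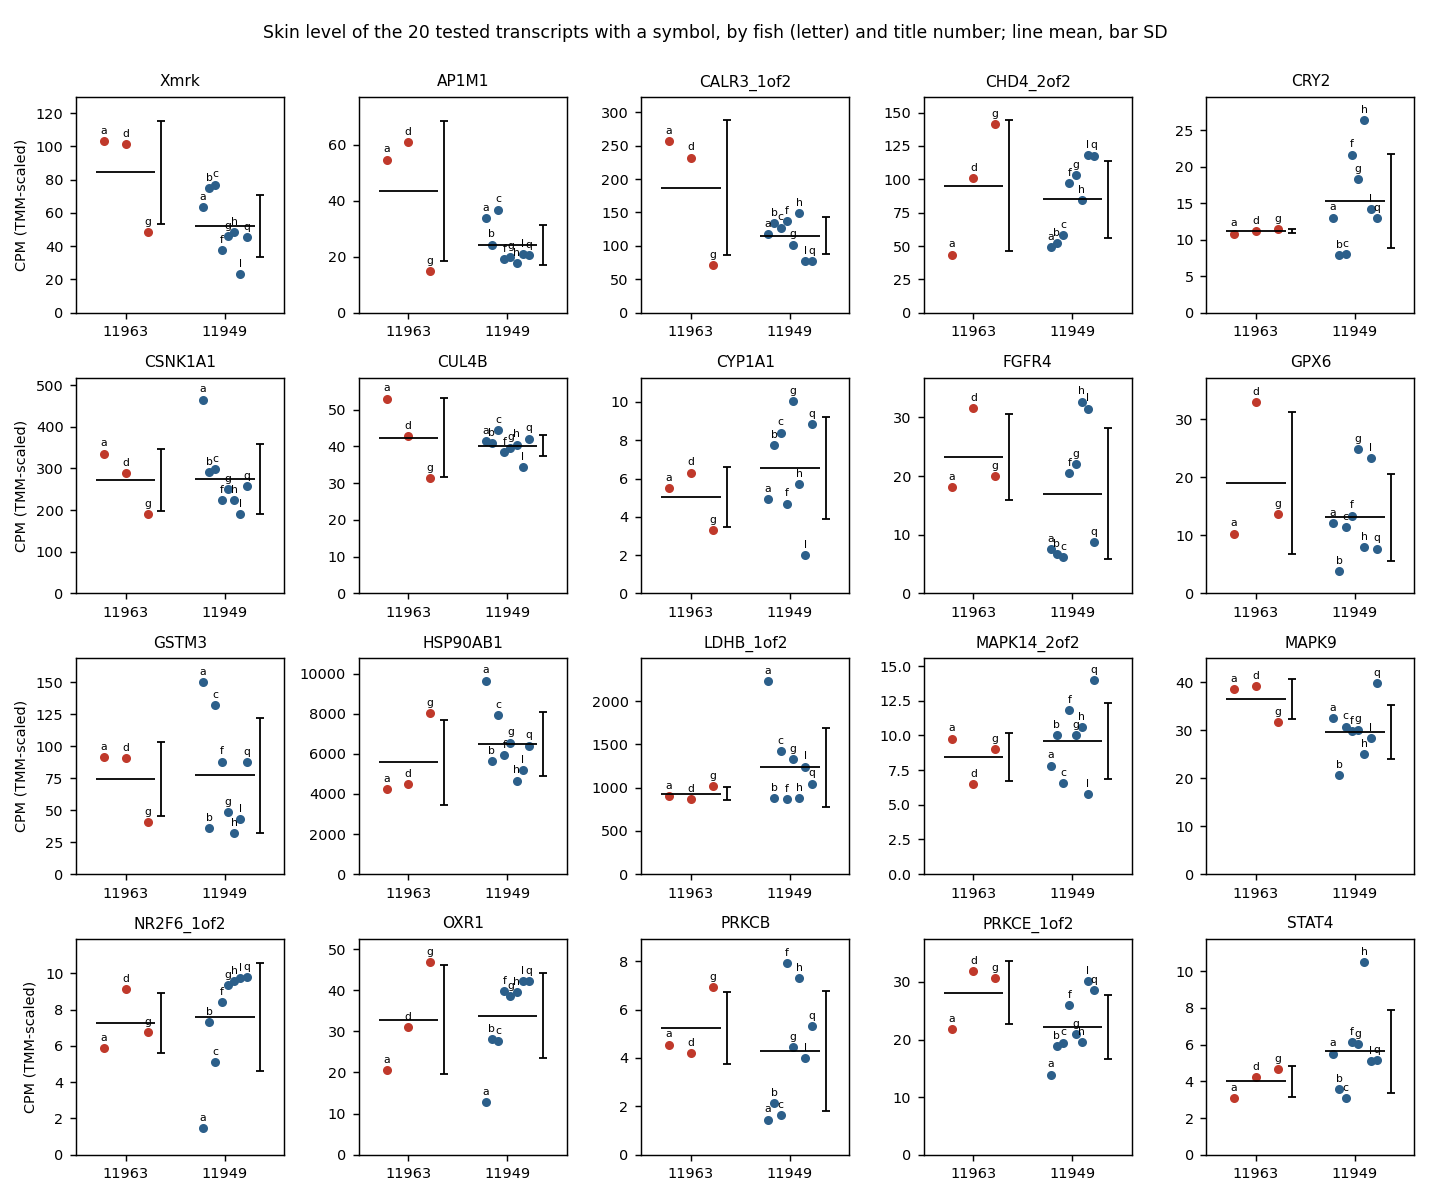
Level in CPM (vertical axes, from 0) of the 20 tested transcripts with a symbol in the 3 skins of 11963 (red) and the 8 skins of 11949 (blue). Points are fish, named by letter, lines are means and bars the SD. In Xmrk, AP1M1 and CALR3_1of2 the fish 11963a and 11963d lie above all blue points while 11963g does not.

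Enzymes of xenobiotic and oxidant handling formed a list of 4 measured members, of which 0 passed, against 0% of all tested transcripts. By estimate 1 was higher and 3 lower, with a median log2 fold change of -0.05. GSTM3, a glutathione S-transferase, stood at 91.3, 90.5 and 40.6 CPM in 11963a, 11963d and 11963g and ran from 32.3 to 150 CPM (median 67.8) in 11949. The 11963 values lay inside that range (log2 fold change -0.06, SE 0.50, 95% interval -1.13 to 1.02, edgeR adjusted p = 0.992). Its estimate was 0.21 without 11963g and -0.06 with it.

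GPX6, of the glutathione peroxidase family, reached its highest level of all 11 skins in 11963d. There it stood at 33.0 CPM, beside 10.3 in 11963a and 13.7 in 11963g, and 3.87 to 25.0 CPM (median 11.8) in 11949. The estimate of 0.54 (SE 0.52, edgeR adjusted p = 0.893) became -0.12 without 11963d, so that fish decided its sign. CYP1A1, a cytochrome P450 induced through the aryl hydrocarbon receptor, lay at 5.49, 6.32 and 3.29 CPM, each below the 11949 median of 6.72 but within the range of 2.00 to 10.03 CPM (log2 fold change -0.38, SE 0.47, edgeR adjusted p = 0.920). OXR1, a gene of oxidation resistance, ran from 20.6 CPM in 11963a through 31.05 in 11963d to 46.8 in 11963g, the last being above every skin of 11949 (12.8 to 42.1 CPM, log2 fold change -0.05, SE 0.39, edgeR adjusted p = 0.992).

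The 8 measured members of the list for kinase signalling, which holds both receptors, gave 0 calls, against 0% of all tested transcripts. Of the 8, 5 were higher and 3 lower by estimate, with a median log2 fold change of 0.29. PRKCE_1of2, a copy of the protein kinase C epsilon gene, stood at 21.8, 31.9 and 30.7 CPM in 11963a, 11963d and 11963g, against 13.9 to 30.2 CPM (median 20.2) in 11949. All 3 exceeded the median and 11963d and 11963g exceeded the maximum (log2 fold change 0.34, SE 0.31, 95% interval -0.33 to 1.02, edgeR adjusted p = 0.891). PRKCB, protein kinase C beta, was low throughout, with 4.55, 4.21 and 6.93 CPM in 11963 and 1.45 to 7.92 CPM in 11949 (log2 fold change 0.28, SE 0.54, edgeR adjusted p = 0.957).

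MAPK9, a stress-activated kinase of the JNK family, lay at 38.6, 39.1 and 31.7 CPM in 11963, each above the 11949 median of 29.9 CPM but not above the highest skin, at 39.9 (log2 fold change 0.30, SE 0.28, 95% interval -0.30 to 0.90, edgeR adjusted p = 0.891). MAPK14_2of2, a copy of a p38 kinase gene, lay at 9.78, 6.49 and 9.02 CPM, inside the 5.77 to 13.98 CPM of 11949 (log2 fold change -0.19, SE 0.36). For both, the 95% interval stayed within 2-fold. STAT4, a cytokine-activated transcription factor, had the lowest estimate of all 20. It measured 3.08, 4.21 and 4.68 CPM, each below the 11949 median of 5.33 in a range of 3.07 to 10.5 CPM (log2 fold change -0.50, SE 0.44, 95% interval -1.44 to 0.44, edgeR adjusted p = 0.876).

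CRY2, a light-independent repressor of the circadian clock in mammals and the single measured clock gene, was nearly constant in 11963, at 10.8, 11.2 and 11.4 CPM. In 11949 it ran from 7.88 through a median of 13.6 to 26.4 CPM, a 3.36-fold range against 1.05-fold. A range tends to widen with the number of fish, so that of 8 fish and that of 3 are not alike. All 3 fish of 11963 lay below that median (log2 fold change -0.46, SE 0.41, 95% interval -1.34 to 0.43, edgeR adjusted p = 0.889). CSNK1A1, casein kinase 1 alpha, which acts in clock and Wnt signalling, measured 336, 289 and 191 CPM in 11963 and 190 to 465 CPM in 11949. The estimate was -0.02 (SE 0.33, 95% interval -0.71 to 0.68), an interval within 2-fold. The ubiquitin ligase scaffold CUL4B had the narrowest interval, -0.50 to 0.65 around 0.08. Its 3 values, 53.0, 42.8 and 31.4 CPM, nevertheless spanned more than the 34.4 to 44.4 CPM of the 8 skins of 11949.

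Among nuclear regulators 0 of 3 passed, against 0% of all tested transcripts, and their median log2 fold change was 0.08. CHD4_2of2, a copy of the remodelling ATPase of the NuRD complex, stood at 43.5 CPM in 11963a, 101 in 11963d and 141 in 11963g. In 11949 it ran from 48.99 through a median of 90.8 to 118 CPM, so 11963a lay below and 11963g above all 8 skins. The estimate of 0.16 (SE 0.40, edgeR adjusted p = 0.966) was -0.25 without 11963g and 0.51 without 11963a. NR2F6_1of2, a copy of an orphan nuclear receptor gene, measured 5.89, 9.12 and 6.76 CPM, inside 1.45 to 9.81 CPM (log2 fold change -0.07, SE 0.48). LDHB_1of2, which belongs to the lactate dehydrogenases that interconvert pyruvate and lactate, varied little in 11963, at 903, 869 and 1016 CPM, and ran from 866 through a median of 1143 to 2235 CPM in 11949 (log2 fold change -0.41, SE 0.34, 95% interval -1.14 to 0.32, edgeR adjusted p = 0.872).

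Fish varied within both title numbers. The SD of log2 CPM had a median over all tested transcripts of 0.62 among the 3 fish of 11963 and 0.73 among the 8 of 11949, and of 0.42 and 0.51 over the 20 with a symbol. Of these 20, 9 varied more in 11963 and 11 more in 11949. A sample SD tends to come out lower from 3 fish than from 8, so these values do not rank the title numbers by spread. The fish 11949a, 11949b and 11949c held an end of the 11949 range together for some of the 20 symbols, a feature noticed after the values were seen. Among the 8 skins of 11949 these were the 3 lowest for 6 of the 20 symbols (CHD4_2of2, FGFR4, NR2F6_1of2, OXR1, PRKCB and PRKCE_1of2), the 3 highest for 3 (Xmrk, AP1M1 and CSNK1A1) and neither for 11. In these fish CHD4_2of2 stood at 48.99, 52.1 and 58.2 CPM, and in the other 5 skins of 11949 at 84.4 CPM or more. PRKCB stood at 1.45, 2.15 and 1.64 CPM in those fish and at 3.99 CPM or more in the others, and OXR1 at 12.8, 28.1 and 27.6 CPM against 38.5 CPM or more. Xmrk, in contrast, stood at 63.5, 74.9 and 77.0 CPM in the same fish and at 48.6 CPM or less in the others. CSNK1A1 stood at 465, 291 and 297 CPM against 258 CPM or less. For PRKCE_1of2 the split was narrow, at 19.45 CPM or less in the same fish against 19.53 CPM or more. The same 3 fish had the lowest values of 11949 on the first principal component, which comes from the same libraries and is no separate evidence. How many of all tested transcripts split these 8 skins in the same way was not counted. The 6 and 3 symbols thus have no background to be set against. Of the 11963 fish, 11963a had the lowest and 11963g the highest level of CHD4_2of2 and OXR1.

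A further 10 transcripts with a symbol had too few counts to enter the main test. MAPK11, another p38 kinase gene, had the most, with 17 counts over the 3 skins of 11963 and 51 over the 8 of 11949. The growth factor gene IGF1 had 8 and 7 counts and PMEPA1 10 and 20. For CCR6_1of2 and CCR6_2of2, copies of a chemokine receptor gene, there were 8 and 4 counts in 11963 and 18 and 17 in 11949. ANXA5_2of2, CAMK2B_1of2, CIDEA, KISS1 and FAM19A3 had between 0 and 11 counts in either group. When the edgeR test was run with no low-count filter, 0 of all 19677 tested transcripts were called. The 0 calls among those with a symbol thus say nothing particular to these genes. FAM19A3, with 0 counts in both groups, did not enter that run either. What size of difference could be detected in these genes at this depth was not tested.

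Since no transcript passed, the 2 identifiers with the smallest unadjusted p in each direction are described, and all 4 missed the threshold. They hold ranks 1, 2, 3 and 13 by p, since the 9 transcripts between the last pair were all higher in 11963 by estimate. ENSXMAT00000009646 had 0 counts in all 3 skins of 11963, among 18105595 counts in all. It had 13, 31, 11, 29, 21, 70, 7 and 15 counts in the skins of 11949a, b, c, f, g, h, l and q, which is 1.55 to 9.30 CPM. With a limit of 3 counts over the group of 11963, its level there was at least 26.1-fold below the 11949 mean of 4.14 CPM (edgeR unadjusted p = 1.92e-05, adjusted p = 0.293). That limit allows for the sampling of reads alone and not for the spread between fish. The tumors of 11963a, 11963d and 11963g, which come from the same fish and are no separate replicates, also had 0 counts. By contrast, all 25 other libraries matched to a title, of either tissue, had between 7 and 70 counts. When all 16 skins entered the fit, this was the single transcript that passed (edgeR adjusted p = 0.0252). That fit contrasts the same skins of 11963 and 11949, in which the transcript had been chosen by its p. The pass is therefore no independent support.

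Such a pattern was rare. Over all 20499 rows, 4 had 0 counts in the 3 skins of 11963 and a count in every skin of 11949, with 20 to 197 counts in total there, and 1 of these also had 0 counts in the tumors of 11963. The reverse was seen in 5 rows, with 4 to 7 counts in total over the 3 skins of 11963, and 1 of these also had 0 counts in the tumors of 11949.

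ENSXMAT00000007507 was lower in 11963 without overlap. It stood at 3.08, 1.93 and 4.33 CPM in 11963a, 11963d and 11963g, and in 11949 from 7.17 through a median of 13.0 to 21.2 CPM (log2 fold change -2.17, SE 0.46, edgeR unadjusted p = 2.95e-04, adjusted p = 0.326). ENSXMAT00000004969 was higher without overlap, at 36.4, 37.2 and 29.6 CPM against 9.48 to 14.3 CPM with a median of 11.96. Its means were 34.4 ± 4.15 and 11.9 ± 2.00 CPM (SD, n = 3 and 8, log2 fold change 1.53, SE 0.27, edgeR unadjusted p = 7.00e-05, adjusted p = 0.326). ENSXMAT00000015046 was higher in only some of the fish: it stood at 26.0 CPM in 11963a and 15.3 in 11963g, while the 1.93 CPM of 11963d lay within the 1.11 to 2.32 CPM of 11949. Its log2 fold change was 3.15 (SE 0.53, edgeR adjusted p = 0.306), and without 11963d it was 3.66 with an edgeR adjusted p of 0.00895. Leaving out 11963d removed the only skin of 11963 at the level of 11949, so this pass is no separate support. Without 11963a, and without 11963g, the edgeR test called 0 transcripts. DESeq2 called all 4 of the identifiers, and voom called 0 transcripts. The 4 had been chosen by their p in the same libraries, so the DESeq2 calls are no independent support.

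Skin of the other title numbers gave context, on a scale set over 31 libraries. ENSXMAT00000004969 averaged 37.3 ± 3.90 CPM in 11963 and 13.0 ± 2.25 in 11949 on this scale, and in 11935 and 11960 single skins reached 29.2 and 47.6 CPM while the others stood at 8.97 to 10.1 CPM. ENSXMAT00000015046, at 27.6 CPM in 11963a and 16.9 CPM in 11963g on this scale, stood at 22.0 CPM in a skin of 11935 and at 27.5 and 18.1 CPM in both skins of 11960. ENSXMAT00000007507 was as low as 1.90 CPM in a skin of 11935 and 3.39 CPM in a skin of 11960. For these 3 identifiers, levels like those of 11963 thus also occurred outside it. AP1M1 stood at 53.9 and 39.0 CPM in the skins of 11960a and 11960b, and CALR3_1of2 at 286 and 117 CPM. In 11963a these stood at 58.0 and 273 CPM, and in 11935 they reached at most 26.0 and 143 CPM. Xmrk stood at 80.3 and 84.2 CPM in 11960 and reached at most 73.5 CPM in 11935, against 110 CPM in 11963a and in 11963d. In the tumors the means of ENSXMAT00000004969 were 32.6 ± 5.22 CPM in 11963 (n = 3) and 17.8 ± 10.1 CPM in 11949 (n = 8), whose tumors reached 35.6 CPM. The tumor means of Xmrk were 584 ± 187 and 632 ± 257 CPM. The 11949 tumors are not from quite the same fish as the skins: 11949d has a tumor library and no skin library, 11949q a skin library and no tumor library.

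**Figure D5:**
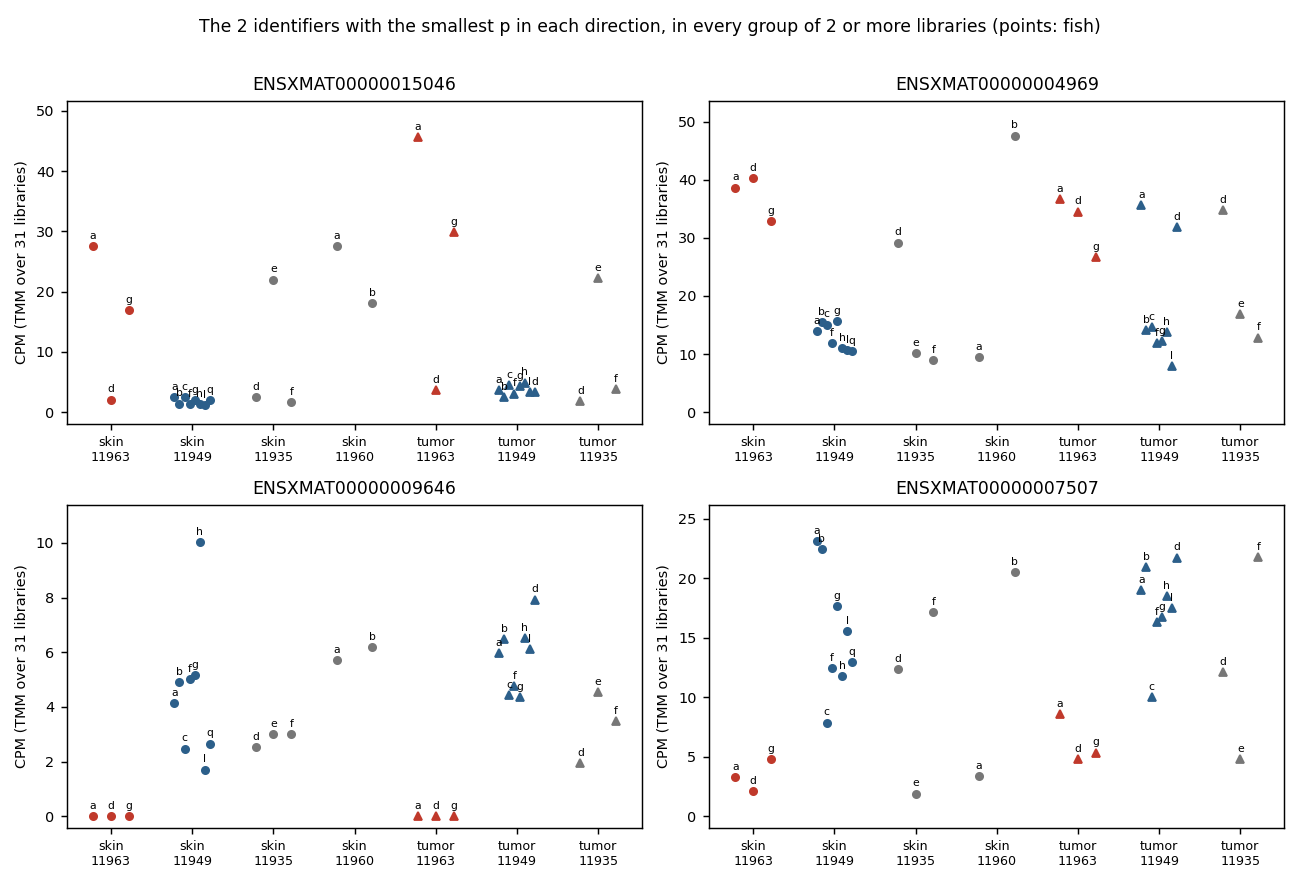
Level in CPM (vertical axes, scaled over 31 libraries) of the 2 identifiers with the smallest p in each direction, in skins (circles) and tumors (triangles) of each group with at least 2 libraries. Red is 11963, blue 11949 and grey other title numbers, with fish named by letter. ENSXMAT00000009646 is at 0 in the 6 libraries of 11963 and above 0 in every other library shown.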

How the data were processed

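The values deposited by the authors are counts of reads per transcript row, not normalized, in 1 table. The submitters' processing notes name GSNAP as the aligner. Neither its version nor the genome build, annotation or counting program is given in the sources used here, and how reads that match both parental alleles or both copies of a gene were treated is not given either. Alleles that differ in how well their reads align could therefore differ in level. Of 32 columns, 31 were matched to a title, and 1 tumor column that matched none was not used.

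In R 4.3.3, the 11 skin libraries were fitted in edgeR 4.0.16 and compared by its quasi-likelihood test (TMM scaling, filterByExpr, title number as the only term, Benjamini-Hochberg adjustment over all tested rows, threshold 0.05). The filter left 15296 rows holding 99.8% of the counts. The SE is the one the F statistic implies, and intervals are 95%. Log2 CPM used a prior count of 2. The script was tested on simulated data. Alternatives were RLE factors, DESeq2 1.42.0, voom of limma 3.58.1, other filters, all 16 skins in the fit, removal of the 10 most abundant rows, a test against a 2-fold change, and leaving out each fish. No library repeated another: the lowest chi-square per degree of freedom over pairs was 35.4. Figures were drawn with matplotlib 3.10.9.

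Named were Xmrk and every row with a symbol, then the identifiers with the largest changes, or, as here with no call, the 2 with the smallest p in each direction. The members, rules and lists were chosen with earlier results of these data known. Of 14 marker lists and 7 process lists, 0 and 6 matched a row. The list for MHC and interferon matched 0. The prefix and suffix of row names are left out.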

Additional observations from a re-analysis of the deposited data

Results flagged for a closer look

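In 27 sets of the 8 skins of 11949 (24 transcripts and 3 library measures), a single skin was searched for that lay far from the nearest other for the range of its set (Dixon's test). For independent sets of normally distributed values about 1.35 such sets would be found, and 4 were found. The sets share the same 8 skins and CPM need not be normally distributed, so these numbers do not test for an excess. In all 4 the skin was the highest of its set. CSNK1A1 stood at 465 CPM in 11949a, and the next highest skin at 297 CPM. LDHB_1of2 stood at 2235 CPM in 11949a, with the next at 1420 CPM. The library of 11949a was also the shallowest of the 11, with a total count of 4239036, and the part of depth in these values was not tested. STAT4 reached 10.5 CPM in 11949h, above the next at 6.14 CPM, and ENSXMAT00000009646 reached 9.30 CPM in the same skin, above the next at 4.69 CPM. The library of 11949h had the most transcripts with a count, 18380.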

How the results depend on the processing

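The count of transcripts between the title numbers was 0 with RLE factors, voom, no low-count filter, the stricter filter, removal of the 10 most abundant transcripts and the test against a 2-fold change. It was 96 with DESeq2 and 1 with all 16 skin libraries in the fit. Leaving out single fish gave 0 to 5: it was 5 without 11963d and 5 without 11949a, sharing 0 transcripts, and 0 without any of the other 9. Of the calls without 11963d and without 11949a, 4 and 3 were also DESeq2 calls. The cause of these changes in the count was not tested. Transcripts with an unadjusted p below 0.05 numbered 592 without 11963d, 821 without 11963a and 1641 without 11963g. A count of 0 shows no stability.

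Of the 20 symbols, 0 passed under any alternative, and 13 kept their sign under every one that tested them. With voom, GSTM3 was at 0.088 and NR2F6_1of2 at 0.021, against negative estimates. Leaving out single fish moved the estimates of those that changed sign from -0.25 to 0.51 for CHD4_2of2, -0.20 to 0.16 for CSNK1A1, -0.12 to 0.23 for CUL4B, -0.12 to 0.84 for GPX6, -0.23 to 0.21 for GSTM3, -0.27 to 0.059 for NR2F6_1of2 and -0.41 to 0.20 for OXR1. The difference in the share of the 10 most abundant transcripts ran from -1.64 to 1.87 percentage points. No paired analysis was possible because every skin came from a different fish and a letter names a fish only within its title number. With 3 fish in 11963, the median SE of 0.51 limits what can be called. Whether the fish are separate broods or share one is not given. The p-values of the transcript tests set the difference between the title numbers against the spread between fish within them. Each side is a single title number, so the fish are no replicates of whatever the number marks.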
